A study of Junonia coenia with 20 samples.

Results

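The 40 Linea-biased transcripts described here are the hind wing transcripts of the common buckeye butterfly, Junonia coenia, with the widest separation between the Linea and Rosa colour morphs while the wing deposits ommochrome pigment. They were chosen by a gap, out of 16251 transcripts: the lowest of 4 Linea values minus the highest of 4 Rosa values in ommochrome-stage wings, on the scale log2(scaled RPKM + 1). RPKM divides reads by transcript length and library size, so levels of different transcripts can be compared per length. Scaled RPKM is RPKM divided by a factor per library. The factor is the library's median ratio to the geometric mean over libraries, among transcripts that reached 1 RPKM in all 16 libraries. The ommochrome-stage values chose the transcripts and are given below as a description, with no test. Tests compared larval and pre-pigment wings, whose values the choice did not use. The spread behind their standard errors and p-values came from all 16 libraries, however, including the 8 ommochrome ones. A gap favours transcripts with little spread within each morph among those 8. Standard errors of the 40 may thus be too small, and their shares of calls too high.

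Hind wings were taken at 4 stages in each morph, as imaginal discs of the fifth larval instar, as pupal wings before pigment, during early (yellow) ommochrome deposition and during late (orange to red) ommochrome deposition. Values were at hand for 16 libraries, 2 per morph and stage, of the 20 samples that the labels describe, and the other 4 were not analysed here. All animals came from a single North Carolina population and were fed an artificial diet, in incubators at 21°C with 8 h of light or at 27°C with 16 h of light. The labels do not tie a morph to a rearing regime, so morph, temperature and day length cannot be told apart. Nor do they say whether a library is 1 animal or a pool, so the p-values below speak of the scatter among these libraries alone, and that scatter may be technical.

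Nymphalid butterflies make ommochromes, the yellow, orange, red and brown pigments of their wing scales, from tryptophan by way of kynurenine. Scale cells take up or make the precursors late in pupal life, and yellow ommochromes appear before red ones. The buckeye is a textbook case of seasonal polyphenism: the same genotype gives tan ventral hind wings (Linea) or dark red ones (Rosa), depending on day length and temperature, with ecdysteroid hormone as the known switch in pupae. The deposited table lists transcripts by the identifiers of a de novo assembly and does not pair them with gene names. No gene name, function or sequence can therefore be given for any of the 40, and the known pigment genes could not be looked up among them.

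Library quality bears on the values that follow. The median transcript had 3.77 to 10.99 RPKM per library before scaling, and 11339 to 14314 transcripts reached 1 RPKM. The scaling factors were 0.859 and 0.616 in the Linea early ommochrome libraries and 1.42 and 1.01 in the Rosa ones. At the late stage they were 1.17 and 0.718 in Linea and 1.15 and 0.930 in Rosa. Scaling thus raised Linea relative to Rosa at the early stage, and some small gaps depend on it. The Spearman correlation between the libraries of a group lay between 0.638 and 0.868. The lowest, 0.638, was that of the Rosa pre-pigment pair, followed by 0.754 for the Rosa larval pair. RPKM keeps no read counts, so depth is unknown for every library. Wings are mixtures of cells, so fewer cells of a type and less RNA per cell cannot be told apart in any result below.

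In ommochrome-stage wings the gap of the 40 transcripts ranged from 0.53 to 2.99 log2 units, with a median of 0.71. Only 5 had a gap of at least 2 and 11 a gap of at least 1, and the other 29 a gap under 1. Because 1 is added before the log is taken, a gap understates the ratio of low values: JC_0014254, with a gap of 0.71, had 0.933 scaled RPKM in its lowest Linea library and 0.183 in its highest Rosa library. In all, 291 transcripts (1.79% of 16251) had all 4 Linea libraries above all 4 Rosa libraries, and 268 (1.65%) had the reverse order. The reverse direction held 32 transcripts with a gap at least as large as that of the last of the 40, and 7 with a gap of at least 1, up to 1.25. Linea bias thus went further than Rosa bias at the top of the ranking, and both directions held about as many transcripts in all.

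**Figure D1:**
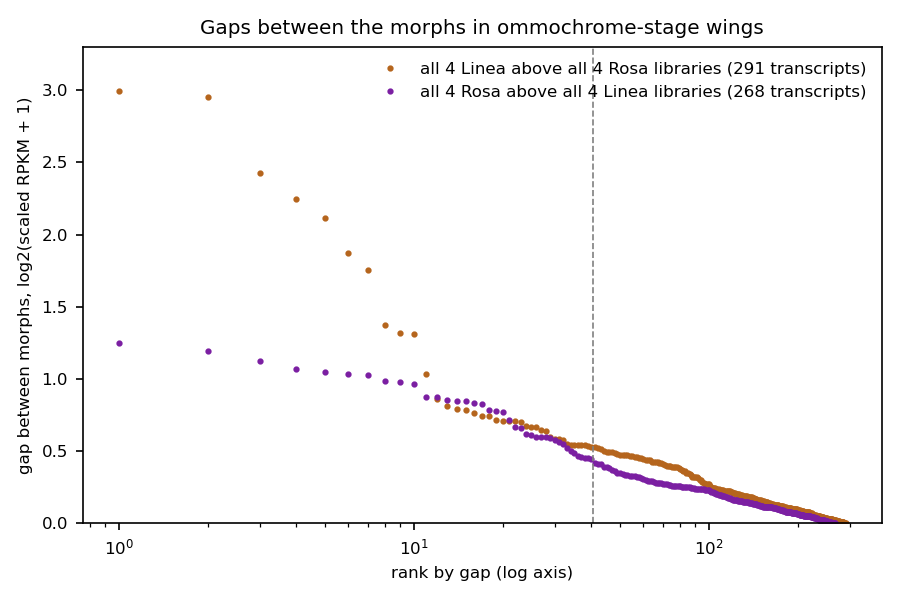
Gap between the morphs in ommochrome-stage wings, in log2 units (y), against the rank of the transcript by gap on a log axis (x), for the 291 transcripts with all Linea libraries higher and the 268 with all Rosa libraries higher; the dashed line marks the 40th rank. The first Linea gaps reach 2.99 and the first Rosa gap is 1.25, and the curves come close after about the first 10 ranks.

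JC_0050014 had the largest gap. Its scaled RPKM was 37.9 and 41.9 in the Linea early ommochrome libraries and 33.9 and 33.0 in the late ones, against 0.0069 and 1.04 in the Rosa early libraries and 3.27 and 0.315 in the late ones. The 4 Linea values lay close together and far above every Rosa value. In larval discs it was abundant in both morphs, at 92.1 and 82.8 in Linea and 70.2 and 86.3 in Rosa, and the morphs overlapped. In pre-pigment wings it was at 17.9 and 13.3 in Linea and 6.73 and 5.0 in Rosa, lower than in discs in both morphs. JC_0050014 was therefore a larval transcript of both morphs that was low in Rosa wings with pigment and intermediate in Linea ones.

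JC_0049495, the second by gap, was the most abundant of the 40 in Linea wings with pigment. It had 103 and 167 scaled RPKM in Linea early libraries and 81.7 and 111 in late ones, against 5.49 and 4.2 in Rosa early libraries and 0.776 and 9.65 in late ones. Before pigment the morphs were alike in range: 30.8 and 82.7 in Linea and 38.8 and 69.2 in Rosa pre-pigment wings. Larval discs held little of it, at 0.504 and 1.97 in Linea and 3.3 and 1.84 in Rosa. Both morphs thus carried JC_0049495 in pre-pigment wings. From there to wings with pigment, its mean went from 56.8 to 115 in Linea and from 54.0 to 5.03 in Rosa.

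JC_0050344 was low in every library except the Linea ommochrome ones. Those had 6.37 and 27.1 scaled RPKM at the early and 12.8 and 39.2 at the late stage. The Rosa ommochrome libraries had 7.1e-07 and 5.9e-06 at the early stage and 0 and 0.367 at the late stage. Among the 8 younger libraries, Rosa pre-pigment replicate 2 had 2.79, and the others had 0.124 or less. Within Linea the values were uneven, with the lowest in early replicate 1 and the highest in late replicate 2.

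JC_0051542 was listed at 0 in all 4 Rosa ommochrome libraries, with 10.1 and 3.74 scaled RPKM in the Linea early libraries and 9.48 and 10.6 in the late ones. It was present in Rosa pre-pigment wings, at 4.31 and 10.1, beside 23.2 and 7.77 in Linea ones. In Rosa larval discs it was at 0 and 0.488, against 13.8 and 7.27 in Linea discs. JC_0042585 and JC_0019147 were the other members of the 40 listed at 0 in all Rosa ommochrome libraries, named because they complete this count of 3. Their Linea ommochrome values were low, from 2.66 to 5.39 for JC_0042585 and from 2.38 to 8.82 for JC_0019147. A value of exactly 0 in a table without counts can be a failed estimate, so no fold is given for these 3.

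**Figure D2:**
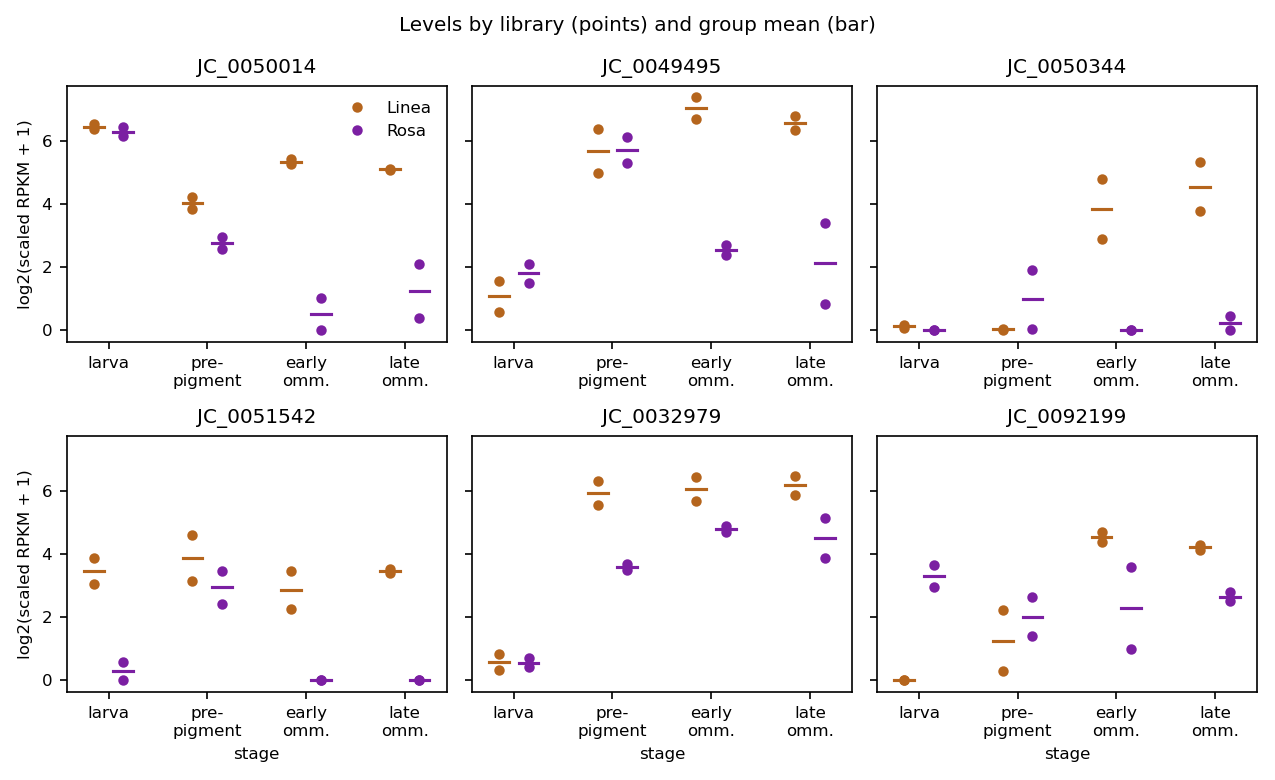
Levels of 6 of the transcripts, log2(scaled RPKM + 1), by stage in Linea (left in each pair) and Rosa, with 1 point per library and a bar at the group mean. In the first 4 panels, those with the largest gaps, the Linea points stand well above the Rosa points at both ommochrome stages, and the order of the morphs at the younger stages differs from panel to panel.

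Over the 40 transcripts, the mean of the 4 Linea ommochrome libraries ran from 2.48 scaled RPKM (JC_0024828) to 115 (JC_0049495), with a median of 10.5. The mean of the 4 Rosa libraries ran from 0 to 25.5, with a median of 1.82. Over all 15798 transcripts kept for testing, the median was 7.45 in Linea and 7.42 in Rosa. Among the 40, 21 averaged at least 10 in Linea, 7 averaged at least 50, and 15 averaged under 1 in Rosa. At least 1 Rosa ommochrome library listed 11 of them at 0. No Linea ommochrome library could list any of them at 0, because a gap above 0 requires every Linea value to be above 0. These counts come from the libraries that chose the transcripts, without shares over all transcripts beside them, so nothing is read from them. JC_0024828, the least abundant, had 0.985 and 1.03 in Linea early and 2.21 and 5.71 in Linea late libraries, against 0.311 and 0.262 in Rosa early and 2.6e-06 and 0.041 in Rosa late libraries.

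The choice separated the last members from the next transcripts by very little. JC_0092199 and JC_0033627, ranked 39 and 40, had gaps of 0.54 and 0.53, and JC_0040487 and JC_0045474, ranked 41 and 42, had 0.53 and 0.52. JC_0033627 ran from 5.86 to 7.07 scaled RPKM in Linea and from 1.48 to 3.75 in Rosa ommochrome libraries. JC_0040487, just outside, ran from 3.85 to 5.45 in Linea and from 3.7e-05 to 2.36 in Rosa. The list therefore has no natural edge at its 40th member.

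**Figure D3:**
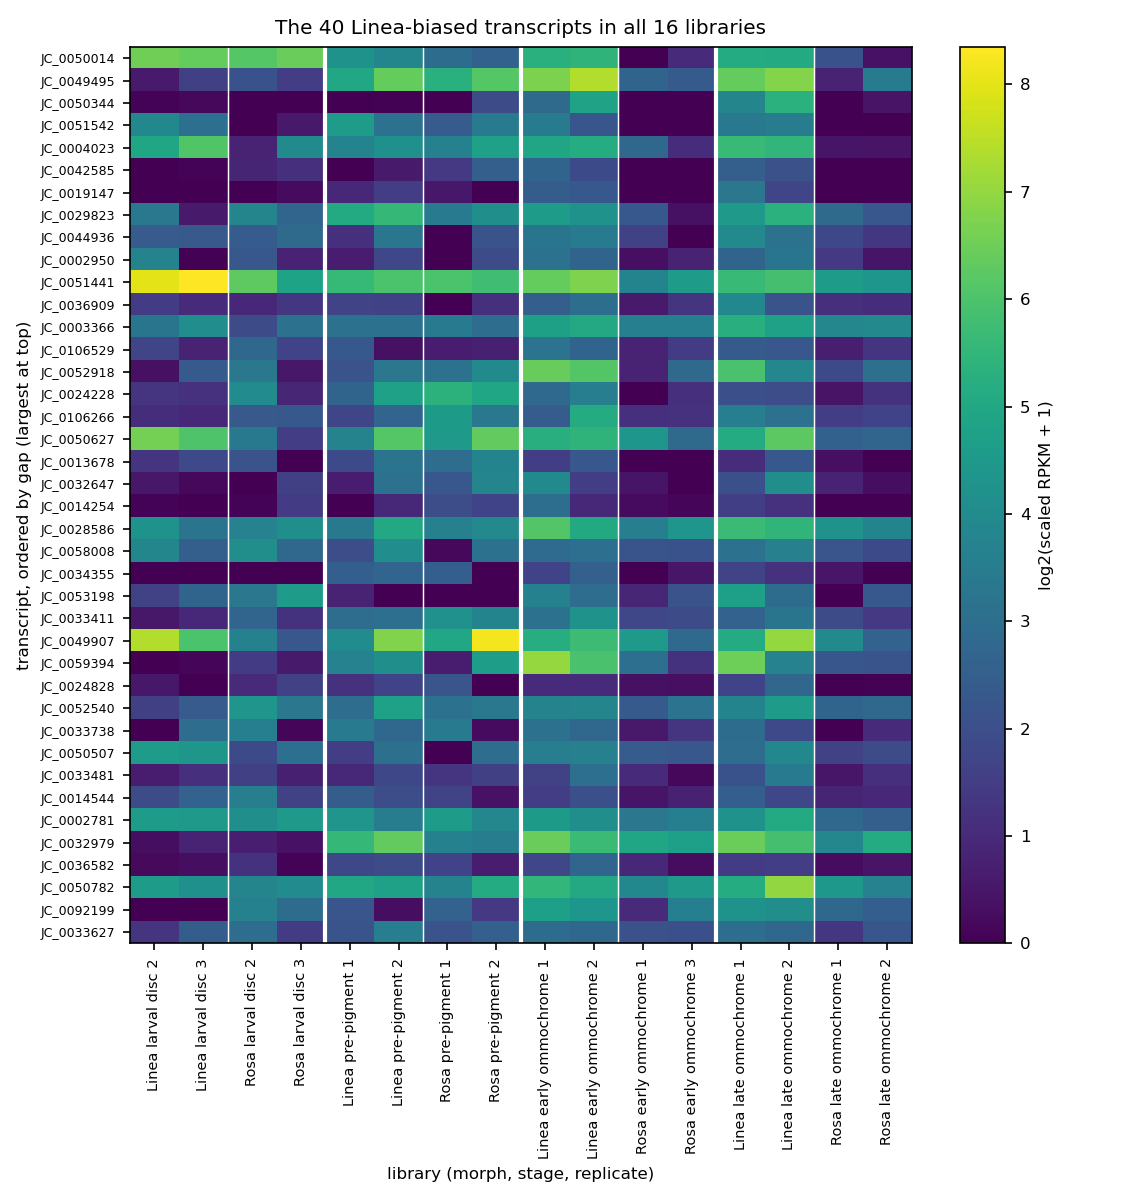
Levels of the 40 transcripts (rows, by gap) in all 16 libraries (columns, by stage, Linea before Rosa within each stage), coloured by log2(scaled RPKM + 1). The Rosa ommochrome columns are darker than the Linea ones in every row by the choice of the rows, and the larval and pre-pigment columns show no common order of the morphs.

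The gap requires each of the 40 to differ between the morphs at both ommochrome stages. A difference at both the early and the late stage therefore follows from the choice. The mean Linea minus Rosa difference was larger at the early stage for 20 transcripts and larger at the late stage for the other 20, with medians of 1.84 log2 units early and 1.93 late. Late and early means were then compared within each morph as log2(mean scaled RPKM + 1), a scale on which ratios of low values are understated. On it, 37 of the 40 were within 2-fold between the stages in Linea, 2 (JC_0024828 and JC_0050782) were at least 2-fold higher late and 1 (JC_0024228) at least 2-fold lower late. In Rosa, 38 were within 2-fold on that scale and 2 (JC_0004023 and JC_0050627) were at least 2-fold lower late; these 5 are named after their values were seen. Of all transcripts, 7.46% in Linea and 8.74% in Rosa were at least 2-fold higher late, and 11.7% and 7.99% were at least 2-fold lower. A gap over both stages favours transcripts that are steady between them, so nothing is read from these shares.

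Against the pre-pigment wings of the same morph, the bias took different routes. The mean of the 4 ommochrome libraries was set against that of the 2 pre-pigment libraries, on the log2(mean scaled RPKM + 1) scale. In Linea, 20 of the 40 were at least 2-fold higher in wings with pigment and 1 at least 2-fold lower. In Rosa, 2 were at least 2-fold higher and 22 at least 2-fold lower. Of all transcripts, 11% in Linea were higher by that measure and 8.75% lower, and 13.8% in Rosa were higher and 9.67% lower. The ommochrome libraries of these counts also chose the transcripts, so an excess of higher values in Linea and of lower values in Rosa follows from the choice. Without Rosa pre-pigment replicate 2 the Rosa count of higher transcripts was 7, and without Rosa late ommochrome replicate 2 it was 1. The Linea count of lower ones was 2 without Linea pre-pigment replicate 1, early ommochrome replicate 2 or late ommochrome replicate 2.

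Lower in Rosa while within 2-fold in Linea was the course of 12 transcripts, led by JC_0051542, and of 5.68% of all transcripts tested. JC_0049907, another of the 12, had a Rosa difference of -3.65 log2 units, and of -1.30 without Rosa pre-pigment replicate 2. Without Rosa pre-pigment replicate 1, some of the 12 were no longer 2-fold lower in Rosa. These were JC_0034355 (0.28), JC_0024828 (0.21), JC_0033738 (0.53) and JC_0002781 (-0.76), named after their values were seen. The others of the 12 stayed at least 2-fold lower in Rosa without either library. The Linea side of the courses was not checked in this way for each transcript. JC_0051542 had 23.2 and 7.77 scaled RPKM in Linea pre-pigment wings, beside a Linea ommochrome mean of 8.47. JC_0050627, another of the 12, had 12.3 and 69.9, beside 47.2. Within 2-fold in Linea can thus be the average of unlike libraries. Higher in Linea while within 2-fold in Rosa was the course of 10, and of 6.08% of all transcripts. It was led by JC_0019147, which had 0.918 and 1.84 scaled RPKM in Linea and 0.456 and 0 in Rosa pre-pigment wings. Some of the 10 left the 2-fold range in Rosa without 1 library, and are named after their values were seen. Without Rosa pre-pigment replicate 1, JC_0002950 was at -1.15 and JC_0092199 at 1.35. Without replicate 2, JC_0036909 was at 1.05 and JC_0050507 at 2.07. The others of the 10 stayed within 2-fold in Rosa without either library. Moving apart in both morphs, higher in Linea and lower in Rosa, was the course of 9, and of 0.949% of all transcripts. It was led by JC_0050014. The 9 include JC_0050344, higher by 4.46 log2 units in Linea with a Rosa difference of -1.14, and JC_0049495, higher by 1.01 in Linea with a Rosa difference of -3.19. JC_0049495 only just passed 2-fold in Linea, with 30.8 and 82.7 scaled RPKM in pre-pigment wings and an ommochrome mean of 115. Its place among the 9 rests on Linea pre-pigment replicate 1. Without Rosa pre-pigment replicate 2 the Rosa difference of JC_0050344 was 0.098, so its fall in Rosa rests on that library. Under the same omission JC_0052918 was at -0.69 and JC_0059394 at 1.63 in Rosa, both named after their values were seen. The others of the 9 stayed at least 2-fold lower in Rosa without either library.

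The remaining 9 followed other courses. In 6, led by JC_0044936, neither morph differed 2-fold from its pre-pigment wings, as in 65.8% of all transcripts. JC_0044936 had 8.4 and 10.2 scaled RPKM in Linea early and 15.1 and 7.72 in Linea late libraries, against 2.16 and 0.0031 in Rosa early and 2.49 and 1.55 in Rosa late ones. Its pre-pigment values were 1.17 and 8.74 in Linea and 0.0056 and 3.42 in Rosa. Without Rosa pre-pigment replicate 2, the Rosa difference was 1.34 for JC_0044936, 1.92 for JC_0058008 and -1.18 for JC_0036582. JC_0058008 was at -1.01 without replicate 1. JC_0058008 and JC_0036582 are named after their values were seen. The others of the 6 stayed within 2-fold in Rosa without either library. The last 3 are named after their values were seen, since each was alone in its class. JC_0053198 was higher in both morphs, by 3.33 log2 units in Linea and 1.60 in Rosa. JC_0024228 was lower in both, at -1.32 in Linea and -4.38 in Rosa. Its Linea pre-pigment values were 5.47 and 26.3 scaled RPKM, beside a Linea ommochrome mean of 5.77. The fall of JC_0024228 in Linea thus rests on pre-pigment replicate 2. JC_0032979 was higher in Rosa, by 1.14, and differed by 0.17 in Linea.

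**Figure D4:**
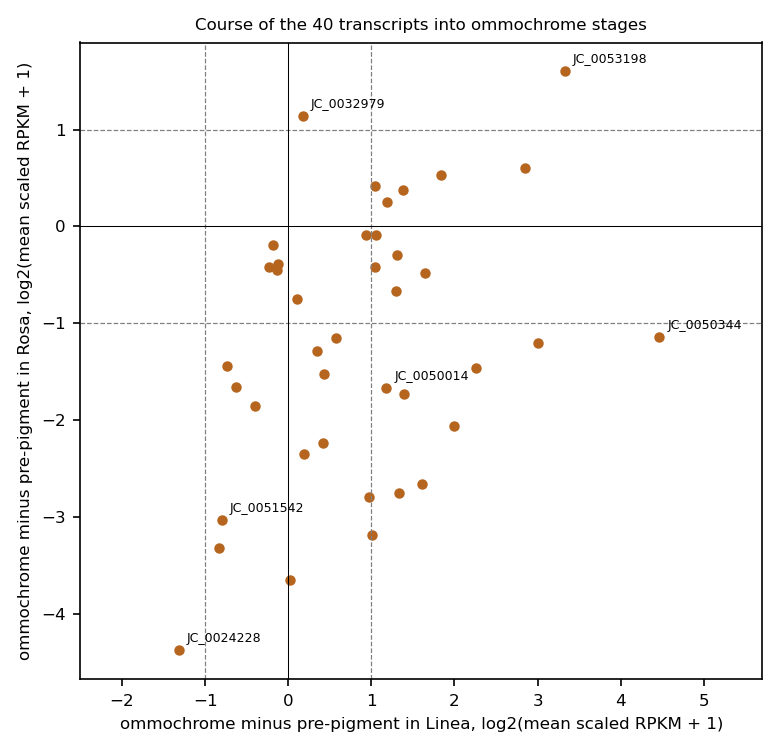
Difference between ommochrome-stage and pre-pigment wings of the same morph, in log2(mean scaled RPKM + 1), in Linea (x) and Rosa (y), with 1 point per transcript and dashed lines at 2-fold. The points spread over the 3 main courses: 12 low in Rosa only, 10 high in Linea only and 9 that move apart in both.

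Whether the bias was already there before pigment was asked of larval and pre-pigment libraries, whose values had no part in the choice. The spread behind the p-values came from all 16 libraries, including those that chose the transcripts. Shares of the 40 under a p threshold are therefore not read as an excess. In larval discs, 0 of the 40 transcripts differed between Linea and Rosa at an adjusted p under 0.05 (limma, Benjamini-Hochberg over 15798 transcripts), as in nearly all transcripts: 0.0886% were called higher and 0.0253% lower in Linea. At an unadjusted p under 0.05, 7 of the 40 (17.5%) were higher and 2 (5%) lower in Linea, beside 3.72% and 2.76% of all transcripts. The Linea mean was above the Rosa mean for 15 of the 40, against 50.9% of all transcripts, and the median Linea minus Rosa difference was -0.29 log2 units, against 0.01 over all transcripts. Both Linea libraries lay above both Rosa libraries for 9 of the 40 and below them for 10, where 20.8% and 17% of all transcripts did. In discs the 40 thus had no common direction, and the median of the 40 was 0.07 without Rosa larva replicate 2.

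Single transcripts differed widely in discs without passing the adjusted threshold. JC_0050627 had the largest difference towards Linea, with 95.5 and 64.7 scaled RPKM in Linea and 9.42 and 1.87 in Rosa, or 3.86 ± 0.91 log2 units (SE, limma adjusted p = 0.299, 0.123 to 0.740 over the alternatives). At pre-pigment its morphs overlapped, at 12.3 and 69.9 in Linea and 21.5 and 81.0 in Rosa. JC_0092199 had the largest difference towards Rosa, at 0.000135 and 0 in Linea and 11.6 and 6.69 in Rosa, or -3.30 ± 0.84 log2 units (SE, limma adjusted p = 0.362, 0.103 to 1 over the alternatives). In wings with pigment JC_0092199 had the opposite order, from 16.5 to 25.1 in Linea and from 1.0 to 11.1 in Rosa.

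A pair of transcripts passed the adjusted threshold in discs only when a single Rosa library was left out; both are named after their values were seen. That leaves 1 Rosa larval library, which the fit assumes to vary like the other groups, and more transcripts were then called in all: leaving out replicate 2 gave 20 calls towards Linea and 21 towards Rosa, and leaving out replicate 3 gave 28 and 146, against 14 and 4 with both. JC_0051441 had 257 and 325 scaled RPKM in Linea and 76.4 and 28.0 in Rosa discs, a difference of 2.61 ± 0.50 log2 units (SE, limma adjusted p = 0.119). Without Rosa larva replicate 2 it was called, at 3.32 (limma adjusted p = 0.033). JC_0004023 had 29.5 and 67.1 in Linea and 0.784 and 14.5 in Rosa discs, or 3.12 ± 0.90 log2 units (SE, limma adjusted p = 0.486). Without Rosa larva replicate 3 it was called, at 4.68 (limma adjusted p = 0.0173).

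In pre-pigment wings 0 of the 40 were called in either direction by limma, as was the case for all transcripts (0%), and 2 were higher and 2 lower in Linea at an unadjusted p under 0.05 (3.21% and 1.65% of all). The Linea mean was higher for 22 of the 40, beside 55.1% of all transcripts. The median difference was 0.36 log2 units, against 0.08 over all transcripts, and it was -0.04 without Linea pre-pigment replicate 2 and also without Rosa pre-pigment replicate 1. Both Linea libraries were above both Rosa ones for 7 of the 40 and below them for 5, where 14.6% and 12.1% of all transcripts were. These shares were near those of all transcripts.

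JC_0032979 had the largest pre-pigment difference towards Linea, with 46.1 and 79.4 scaled RPKM in Linea and 11.8 and 10.4 in Rosa, or 2.35 ± 0.53 log2 units (SE, limma adjusted p = 0.533, 0.135 to 1 over the alternatives). Its libraries did not overlap at this stage or at the ommochrome stages, where Linea had 50.5 to 88.5 and Rosa 13.7 to 34.4. JC_0106266 had the largest difference towards Rosa, with 2.32 and 5.67 in Linea and 22.2 and 9.21 in Rosa, or -1.71 ± 0.77 log2 units (SE, limma adjusted p = 1, 0.305 to 1 over the alternatives).

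Over both younger stages together, 4 libraries per morph, 0 of the 40 were called by limma in either direction (0% of all transcripts), and 6 were higher and 5 lower in Linea at an unadjusted p under 0.05 (3.75% and 2.1% of all). The median of the 40 was 0.14 log2 units, against 0.06 over all transcripts, and it was -0.10 without Rosa larva replicate 3 and -0.04 without Rosa pre-pigment replicate 1. JC_0051542 had the largest mean difference, 2.05 ± 0.45 log2 units (SE, limma adjusted p = 0.387, 0.0839 to 0.755 over the alternatives), with its disc values apart and its pre-pigment values overlapping. JC_0092199 had the lowest, -2.03 ± 0.59 (SE, limma adjusted p = 0.557). None of the 40 had Linea above Rosa without overlap at both younger stages, where 3.56% of all transcripts did. The reverse order at both stages held for 4 of the 40, beside 2.02% of all transcripts: JC_0042585, JC_0106266, JC_0014254 and JC_0033411, named after their values were seen. JC_0042585, for one, had 0 and 0.0477 scaled RPKM in Linea and 0.807 and 1.18 in Rosa discs, and 0 and 0.508 in Linea and 1.61 and 4.71 in Rosa pre-pigment wings. In wings with pigment it was then listed at 0 in Rosa.

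Whether the morph difference itself changed between discs and pre-pigment wings was tested in the same fit, a test added after the data were seen. It called 0 of the 40 (limma, lowest adjusted p 0.623) and 0% of all transcripts. At an unadjusted p under 0.05, 5 of the 40 had a larger and 3 a smaller Linea minus Rosa difference in discs, against 2.36% and 2.62% of all transcripts. JC_0049907 had the largest such value, 4.91 ± 1.67 log2 units (SE, limma adjusted p = 0.838). The libraries had 166 and 62.9 scaled RPKM in Linea and 11.8 and 3.8 in Rosa discs, and 15.3 and 108 in Linea and 30.8 and 291 in Rosa pre-pigment wings.

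**Figure D5:**
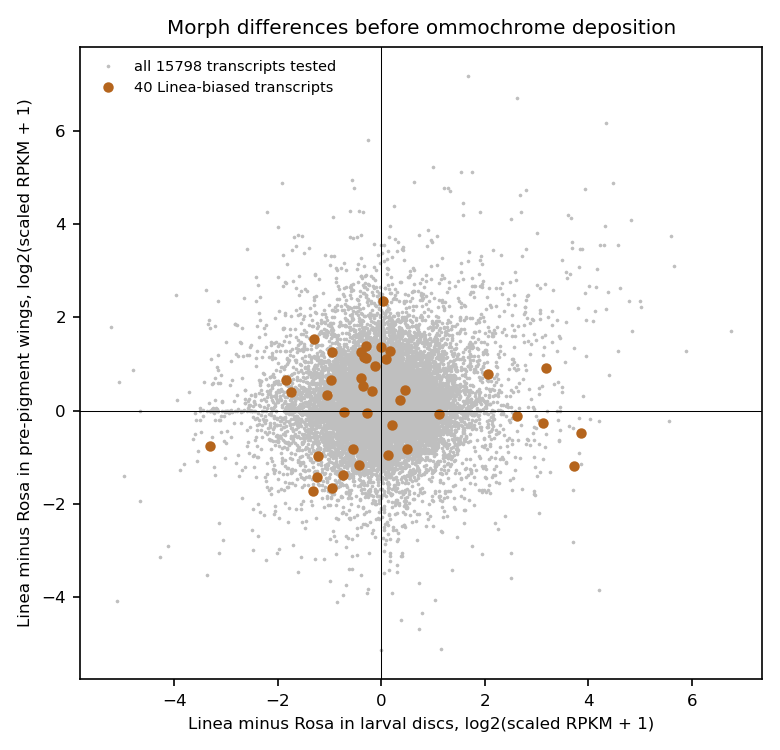
Linea minus Rosa difference in log2(scaled RPKM + 1) in larval discs (x) and pre-pigment wings (y) for the 15798 transcripts tested (grey) and the 40 Linea-biased transcripts (brown). The 40 lie on both sides of both zero lines, with medians of -0.29 in discs and 0.36 in pre-pigment wings.

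Some of the 40 rose and some fell before pigment, and most were called in neither direction. From larval disc to pre-pigment wing, both morphs averaged, 9 of the 40 (22.5%) rose and 3 (7.5%) fell (limma, adjusted p under 0.05), beside 13.3% and 14.4% of all transcripts. The median change of the 40 was 0.58 log2 units, against -0.14 over all transcripts. With RPKM as deposited, which moved the median of all transcripts to -1.09, 4 of the 40 rose and 10 fell (6.6% and 43.6% of all) and the median of the 40 was -0.25. The median of the 40 thus lay above that of all transcripts under both scalings, while the split into risers and fallers depended on the scaling. It also depended on the fit. With the compared libraries alone, which leaves out those that chose the transcripts, 4 of the 40 rose, beside 10.9% of all transcripts. In that fit the share of risers was no higher among the 40 than among all. With the replicate number as a block, 5 rose, beside 10% of all transcripts. The count of risers was 5 without Linea larva replicate 3 (10% of all transcripts) and 5 without Linea pre-pigment replicate 2 (11.6%).

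JC_0049495 and JC_0032979 rose the most. JC_0049495, whose values by library stand above, changed by 4.26 ± 0.55 log2 units (SE, limma adjusted p = 0.000226). JC_0032979 had 46.1 and 79.4 scaled RPKM in Linea and 11.8 and 10.4 in Rosa pre-pigment wings, against 0.247 and 0.786 in Linea and 0.617 and 0.327 in Rosa discs. Its change was 4.20 ± 0.37 log2 units (SE, limma adjusted p = 1.8e-05). All 4 pre-pigment libraries of each lay above all 4 larval ones.

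The fallers were JC_0050014, JC_0053198 and JC_0051441. JC_0050014 changed by -2.98 ± 0.40 log2 units (SE, limma adjusted p = 0.00027). JC_0053198 had 0.725 and 0 scaled RPKM in Linea and 1.3e-06 and 0 in Rosa pre-pigment wings, against 2.16 and 5.51 in Linea and 8.82 and 22.7 in Rosa discs. Its change was -2.86 ± 0.61 log2 units (SE, limma adjusted p = 0.0053), and it was present again in wings with pigment, at 6.74 to 25.4 in Linea and 0 to 3.87 in Rosa. JC_0051441, named to complete the count, changed by -1.03 ± 0.36 log2 units (SE, limma adjusted p = 0.0491) and was called in only 5 of 24 alternative settings. JC_0049495, JC_0032979, JC_0050014 and JC_0053198 were called in all 24. The other risers are named to complete the count. JC_0033411 was called in all 24 and JC_0034355 in all 23 settings that kept it. JC_0024228 was called in 21 of 24, JC_0051542 in 17, JC_0059394 in 15 and JC_0029823 in 14, and JC_0013678 in 14 of 23.

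The membership of the list rests on single libraries. With 1 of the 8 ommochrome libraries left out, between 14 and 26 of the 40 stayed among the top 40: 16 and 26 without Linea early replicates 1 and 2, 20 and 15 without Linea late replicates 1 and 2, 26 and 20 without Rosa early replicates 1 and 3, and 15 and 14 without Rosa late replicates 1 and 2. Ranking by the difference of morph means kept 8. Over these 9 settings and 3 of scaling or pseudocount, 12 in all, 6 transcripts stayed among the top 40 in every one: JC_0050014, JC_0049495, JC_0050344, JC_0051542, JC_0004023 and JC_0029823. JC_0029823 had 23.6 and 17.9 scaled RPKM in Linea early and 21.8 and 39.3 in Linea late libraries, against 3.88 and 0.292 in Rosa early and 6.31 and 3.83 in Rosa late ones. JC_0053198 and JC_0033627 stayed in none of the 12.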

How the data were processed

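The authors deposited RPKM per transcript of a de novo assembly, with Bowtie 0.12.7 as aligner, per the submitters' processing notes. How the transcripts were assembled, quantified and filtered was not given in the sources used here. Per the labels' protocols, amplified cDNA of poly(A) RNA was sheared to 300 bp and read as pairs of 75 or 100 bp. The low values show no whole reads (2595 lie above 0 and below 0.001 RPKM), so no count test was run and depth is unknown.

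Each library was divided by its median ratio to the row geometric mean, taken over 7126 transcripts that reached 1 RPKM in all 16 libraries. Tests covered the 15798 transcripts that reached 1 RPKM in 2 or more libraries. All 40 members are among them, as their Linea ommochrome values alone can admit them. limma 3.58.1 in R 4.3.3 was fitted to log2(scaled RPKM + 1) with 8 group means, 16 libraries, 8 residual degrees of freedom and an intensity trend, and was checked on simulated data. Fold changes on this scale understate changes of low transcripts. Ranges of adjusted p over the alternatives include the value of this fit.

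The members and the tests were chosen with earlier results of these data known. Named are the members with the 4 largest gaps, those at the list's edge, those with the largest differences in each comparison, the most and the least abundant, the leader of each course, and others where stated.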

Additional observations from a re-analysis of the deposited data

How the results depend on the processing

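Membership: 25 of the 40 stayed with RPKM as deposited, 8 by morph means, and 14 to 26 without single libraries. A filter at a mean of at least 5 RPKM removes low transcripts and leaves the gaps unchanged. The 24 members that pass this filter stay by construction, so their count says nothing of stability. Morph comparisons: without single libraries the larval count of members higher in Linea was 0 to 1 and the medians were -0.48 to 0.074 in discs and -0.043 to 0.48 at pre-pigment; counts were 0 under the other settings. Larva to pre-pigment: risers were 4 with RPKM as deposited, 4 with the compared libraries alone (10.9% of all transcripts) and 5 to 10 without single libraries, fallers were 10 with RPKM as deposited, and the median was -0.25 with RPKM as deposited and 0.94 with a pseudocount of 0.1. Course: members lower in Linea were 0 with RPKM as deposited, 2 with a pseudocount of 0.1 and 1 to 2 without single libraries, and members higher in Rosa 1 to 7. The cause was not tested.

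With the replicate number as a block, 5 members rose and 2 fell from larva to pre-pigment, and 10% and 9.44% of all transcripts did. The labels do not say that a number marks a shared batch. Deviations of same-numbered libraries of the morphs correlated at 0.171 in discs, 0.379 at pre-pigment, 0.036 at early ommochrome (number 1 alone is shared) and 0.172 at late ommochrome, a single independent value per stage. Both tested stages, discs and pre-pigment, were above 0.1, and early ommochrome, which no test compared, was not. Whether the numbers pair the libraries is thus unsettled. The main values are unpaired, with 9 risers and 3 fallers, and the block values are to be read beside them. The block changed no count in the morph comparisons.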
